A study of Mus musculus with 2 samples.

Results

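The 43 genes described here encode the Krüppel-like factors (KLF), the ETS factors and the interferon regulatory factors (IRF) that the array measured with a probe set of their own. They were chosen by gene symbol in the platform annotation, with no measured value, from a fixed set of names of these 3 families that leaves out Klf5, Irf7, Irf8, Irf9 and Spi1. They were read on 109 probe sets and are 43 of 18194 genes measured. The set holds 15 KLF, 5 IRF and 23 ETS genes. Klf8, Klf18 and Etv1 had no probe set assigned to them alone and were not analysed here. The cells were neutrophils, live and with much Gr-1 but no CD48 on their surface, sorted by flow cytometry from the bone marrow of C57BL/6 mice, an inbred strain. No treatment or allele is given in the labels. The sort was done in 2 independent experiments, and total RNA of each was hybridised to 1 array, called replicate 1 and replicate 2. The labels do not say whether an array holds 1 mouse or a pool, nor the age or sex of the mice.

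The 3 families bind DNA through different folds. KLF proteins carry a cluster of zinc fingers at their C-terminal end that reads GC-rich and CACCC elements, and many of them act through co-repressors. ETS proteins share a winged helix-turn-helix domain that reads a GGAA core, and several of them serve lineage choice in blood. IRF proteins share an N-terminal domain with conserved tryptophans that reads repeats of GAAA, and they link interferons and pathogen receptors to gene activation. In granulocytes these families act beside PU.1, the ETS factor of Spi1, which is not in the set.

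A signal is the linear brightness that MAS5, the array maker's algorithm, gave a probe set. Background was taken from 87 probe sets of sensory receptor genes (smell, pheromone and taste), as their 95th percentile, which was 108 for replicate 1 and 131 for replicate 2. To count as above background, a gene needed a probe set that passed these limits on both arrays. The values given for a gene are those of its brightest probe set unless another is named. Because probe sets bind with different strengths, no gene's signal is ranked against another's. In bulk RNA, fewer cells that express a gene and less RNA per cell cannot be told apart. As a check of the sort, 11 of 11 neutrophil markers (S100a8, S100a9, Ltf, Camp, Ngp, Lcn2, Mmp8, Mmp9, Cxcr2, Csf3r and Itgam) were above background. The median signal of all 45101 probe sets was 65.5 and 71.6 on replicates 1 and 2. The number of arrays, 2 in 1 group, allows no test and limits the precision, so every difference below lacks a replicate check. Directions between the arrays hold for the deposited scaling. With scaling to the hybridisation controls Ets1, Fli1, Gabpa, Irf3, Klf10 and Klf17 were lower instead of higher on replicate 2. Klf7 and Elk4 were lower also with median scaling, and Klf14 with each of the other scalings.

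Of the 43 genes, 25 (58.1%) were above background on both arrays, against 7354 of 18194 genes (40.4%) on the whole array. By family these were 11 of 15 KLF genes, 4 of 5 IRF genes and 10 of 23 ETS genes. Of the 109 probe sets, 54 were above background on both arrays. The genes above background hold all 4 members of the ETS and ERG branches and the 4 interferon-linked IRF genes of the set. The 4 ETS genes known from epithelia, the 3 genes of the PEA3 and ER71 branches and the SPI genes Spib and Spic were not among them. Klf17 (119 and 139) and Klf14 (135 and 136) lay only just above background on both arrays. Klf16 (108 and 123), Elf3 (146 and 127), Etv2 (104 and 151) and Etv5 (92.2 and 140) lay just outside, each above background on 1 array alone.

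**Figure D1:**
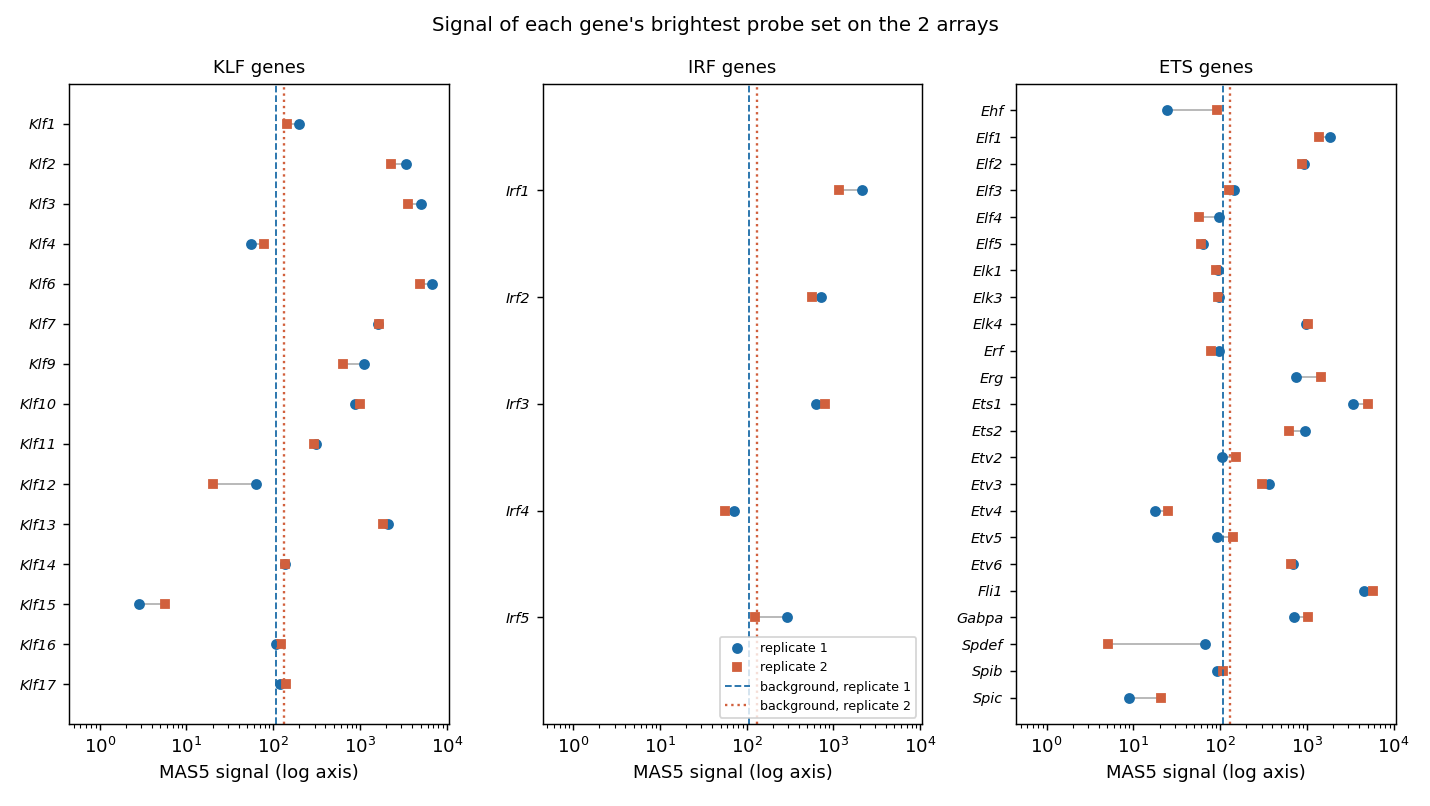
Signal (horizontal, log axis) of each gene's brightest probe set on replicate 1 (circles) and replicate 2 (squares), by family, with the background of each array as a vertical line. Of the KLF genes, 11 of 15 have points right of the lines on both arrays, against 10 of 23 ETS genes.

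The IRF genes were above background except Irf4. Irf1, an early interferon-gamma response gene and activator of antigen presentation, had signals of 2136 and 1148 on replicates 1 and 2. It was thus 1.86-fold lower on replicate 2, at a log2 signal of 10.61 ± 0.63 (SD, n = 2). Irf2, which can antagonise Irf1 at shared sites, had 723 and 573, also lower on replicate 2, on its single probe set, which can bind several transcripts. Irf3, the factor that TBK1 phosphorylates after nucleic acid sensing, had 632 and 803. That was 1.27-fold higher on replicate 2, on a probe set that can bind several transcripts. The other Irf3 probe set above background on both arrays was higher there as well (168 and 194). A further one had less signal on replicate 2 and was above background on replicate 1 alone (140 and 93.3). The last was below background on both arrays (57.9 and 107). Irf4, a factor of B cells, plasma cells and some dendritic cells, had 72.1 and 56.4, below background on both arrays, and its other probe set had 3.34 and 5.47. Of 8 dendritic cell markers 2 were above background, Zbtb46 (127 and 133) and Cd74 (249 and 203), with a summed signal of 892 and 662, and of 4 NK cell markers none was, with a sum of 113 and 179.

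Irf5, which acts downstream of Toll-like receptors and MyD88, gave 2 opposite readings. Its brightest probe set had 290 on replicate 1 and 125 on replicate 2, below background there, so its signal was at least 2.20-fold lower on replicate 2. The other probe set had 140 and 166 and was the only Irf5 probe set above background on both arrays. The gene counts as above background through the dimmer probe set and as lower through the brighter one.

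The stretches before the Irf1 and Irf2 start sites are shown because both hold a palindrome of the STAT type, TTCNNNGAA, searched here on both strands. Capitals mark each match, and in Irf2 also a repeat of the kind IRF proteins read (GAAA, any 2 bases, GAAA). Each window is the 250 bases before the first start site that RefSeq lists for the gene in the table used (GRCm38.p6, plus strand), chr11:53769764-53770013 for Irf1 and chr8:46739495-46739744 for Irf2.
Irf1: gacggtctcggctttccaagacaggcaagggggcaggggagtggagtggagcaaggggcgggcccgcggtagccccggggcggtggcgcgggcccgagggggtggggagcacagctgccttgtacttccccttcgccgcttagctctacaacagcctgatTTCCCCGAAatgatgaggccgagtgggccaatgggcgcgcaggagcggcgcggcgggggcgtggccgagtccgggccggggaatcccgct
Irf2: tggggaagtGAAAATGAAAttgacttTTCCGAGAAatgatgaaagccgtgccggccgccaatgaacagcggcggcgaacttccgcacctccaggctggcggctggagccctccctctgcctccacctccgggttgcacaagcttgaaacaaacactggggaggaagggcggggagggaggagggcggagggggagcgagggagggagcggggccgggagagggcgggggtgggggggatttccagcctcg
In Irf1 the palindrome spans positions -90 to -82 from the start site, and in Irf2 positions -224 to -216, just after the repeat at -241 to -232. Such a match describes the letters only and is no evidence that a factor bound there.

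The KLF genes above background included the lymphoid and vascular factor Klf2, with signals of 3347 and 2306, and Klf6, an early growth response factor, with 6698 and 4963. Both had less signal on replicate 2, by 1.45-fold and 1.35-fold. Klf6 was read on 5 probe sets, and on all 5 it was above background and lower on replicate 2, by 1.17-fold to 1.35-fold. Klf7, a close relative of Klf6, was level between the arrays. Its 4 probe sets were above background, had 1348 to 1604 on replicate 1 and 1294 to 1657 on replicate 2, and moved by at most 1.05-fold, 2 up and 2 down. Klf4, the KLF gene of monocyte differentiation, was not above background on either array, with 54.8 and 79.1 on its brighter probe set and 10.8 and 15.5 on the other.

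Klf1, the activator of the globin genes in red cell precursors, had signals of 196 and 144, close above background on replicate 2. Of 8 measured erythroid markers 1 was above background, Epor, with 170 and 189. Slc4a1 (120 and 91.5) and Alas2 (109 and 95.5) lay just above background on replicate 1 alone, and Gata1 (92.9 and 93.4) on neither array. The summed signal of the erythroid markers was 762 on replicate 1 and 692 on replicate 2, and their part in the Klf1 signal was not tested.

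Among the KLF repressors that recruit CtBP, Klf3 was above background and Klf12 was not. Klf3, which restrains other KLF activators in blood cells, had 5084 and 3563 on its brightest probe set, 1.43-fold lower on replicate 2. It was above background on 6 of 7 probe sets, of which 5 were lower on replicate 2 and 1 was level within 1.03-fold (346 and 357). Klf12 had 62.8 and 20.1 on the brightest of its 5 probe sets.

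The KLF genes whose proteins bind the Sin3 co-repressor were above background in 5 of 6 cases. Klf9, a target of glucocorticoid and thyroid hormone receptors, had 1124 on replicate 1 and 634 on replicate 2, a log2 signal of 9.72 ± 0.58 (SD, n = 2). It was 1.77-fold lower on replicate 2, and the 4 Klf9 probe sets above background were lower there without exception, by 1.08-fold to 1.77-fold. Klf10, an immediate-early target of TGF-beta, had 874 and 1002, slightly higher on replicate 2. Klf13, known for its part in chemokine expression in T cells, had 2100 and 1828, and Klf11 had 313 and 295. Klf15, a metabolic regulator of liver and muscle, was not above background at 2.85 and 5.69.

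The window before Klf9 (chr19:23140976-23141225, GRCm38.p6, plus strand) is shown because Klf9 and Irf1 had the largest differences in favour of replicate 1 among the genes above background on both arrays by their brightest probe set, and both windows hold the palindrome TTCNNNGAA.
Klf9: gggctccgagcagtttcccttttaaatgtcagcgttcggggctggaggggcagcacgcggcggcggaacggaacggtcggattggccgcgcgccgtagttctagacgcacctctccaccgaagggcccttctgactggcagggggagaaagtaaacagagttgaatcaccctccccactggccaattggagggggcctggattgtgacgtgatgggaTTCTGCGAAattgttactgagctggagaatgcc
The palindrome of Klf9, in capitals, spans positions -33 to -25. Irf2, Etv6 and Elf2 held such a palindrome too and were lower on replicate 2 by 1.26-fold, 1.06-fold and 1.04-fold. Etv6 and Elf2 were thus close to level. By the mean log2 signal of all its probe sets Elf2 was higher instead, by 0.08 on the log2 scale. Of the 25 genes of the set above background 15 were lower on replicate 2, where 43.7% of all genes were. A part of the palindrome in any of these differences was not tested.

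The ETS and ERG branches were above background in full. Ets1, a factor of lymphocyte development, had 3358 and 5080 on its brightest probe set, and Fli1, a factor of megakaryocytes and myeloid cells, had 4528 and 5757. Both had more signal on replicate 2, by 1.51-fold and 1.27-fold. All 4 Ets1 probe sets were above background, 3 of them higher on replicate 2 and the dimmest lower (162 and 146). Ets2, an effector of Ras and MAP kinase signalling in myeloid cells, had 962 and 627 and was 1.53-fold lower on replicate 2. Another Ets2 probe set, of the type that can bind several transcripts, had 395 and 110, which on replicate 2 was below background.

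Erg, a factor of stem cells and endothelium, had the largest difference in favour of replicate 2 among the brightest probe sets of the 25 genes above background. That probe set had 745 and 1451, a log2 signal of 10.02 ± 0.68 (SD, n = 2) and 1.95-fold more on replicate 2. The other Erg probe set had 31.4 and 105, below background on both arrays. The Erg call therefore rests on 1 probe set, which was made to a sequence tag that the platform annotation assigns to Erg. Whether that tag lies in the Erg transcript was not checked, so these values may not be those of Erg. Among 8 stem and progenitor markers, Kit (244 and 547) and Myb (253 and 945) were above background, while Cd34 was at 3.01 and 8.29. Gata2 (157 and 88.5) was above background on replicate 1 alone, and Hlf (90.8 and 158) on replicate 2 alone. The summed signal of the 8 was 898 on replicate 1 and 1990 on replicate 2. Of 7 megakaryocyte markers 1 was above background on both arrays, Itga2b (332 and 365), and Gp1bb was so on replicate 2 alone (104 and 209). Of 7 endothelial markers 1 was, Kdr (199 and 203), while Egfl7 had 80.2 and 226, at least 2.10-fold higher on replicate 2. The summed signal of the 7 endothelial markers was 483 on replicate 1 and 507 on replicate 2. The part of such cells in the Erg signal was not tested.

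Gabpa encodes the DNA-binding subunit of GABP, an activator of mitochondrial and leukocyte integrin genes. It had 705 and 1015, 1.44-fold higher on replicate 2, and its other probe set was higher by 1.37-fold (177 and 243). The window before Gabpa (chr16:84834874-84835123, GRCm38.p6, plus strand) is shown because it holds the extended ETS site CCGGAAG, in capitals, on the opposite strand.
Gabpa: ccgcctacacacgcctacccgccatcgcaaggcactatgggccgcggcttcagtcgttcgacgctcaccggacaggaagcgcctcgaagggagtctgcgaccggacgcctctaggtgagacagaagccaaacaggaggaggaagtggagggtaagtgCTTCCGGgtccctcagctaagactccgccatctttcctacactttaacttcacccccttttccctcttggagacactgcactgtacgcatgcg
This match spans positions -93 to -87. The only other gene of the set with that site was Elk4.

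In the ELF branch, Elf1, a lymphoid and myeloid activator, had 1846 and 1364, and Elf2 had 924 and 885, while Elf4, a factor of lymphocyte quiescence, was not above background (97.3 and 56.7). Of the ternary complex factors, which join SRF on immediate-early genes, Elk4 was above background (980 and 1025). Elk1 (94.6 and 88.5) and Elk3 (97.5 and 94.9) were not, on any of their 3 and 4 probe sets. The repressor Etv6, needed for adult blood stem cells, had 683 and 647, and Etv3 had 361 and 306. Erf, a repressor controlled by ERK, was not above background (96.5 and 78.6).

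The remaining ETS genes were at or below background. Spib, a factor of B cells and plasmacytoid dendritic cells, had 90.9 and 107, and Spic, the factor of red pulp macrophages, had 8.89 and 20.7 on its brightest probe set. Of 9 B cell markers 1 was above background, Igll1 (173 and 167), and of 8 T cell markers 1, Cd3d (433 and 374). Etv4, a PEA3 factor of branching organs, had 17.6 and 25.1. The epithelial factors Ehf (24.3 and 91.3), Elf5 (63.6 and 60.3) and Spdef were below background on both arrays. Spdef had 66.1 and 5.05, a wide gap between values that both lie below background and so give no fold. Among 7 epithelial markers Epcam alone was above background, with 160 and 164.

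Between the arrays, 15 of the 25 genes above background were lower on replicate 2 and 10 were higher. This was 60.0% lower, against 43.7% of the 7354 genes above background. With the arrays scaled to their medians the split became 18 lower and 7 higher, where 55.5% of all genes above background were lower. With scaling to the hybridisation controls it was 24 lower and 1 higher, where 91.7% of all genes above background were lower. Under the scaling to the hybridisation controls the median of all genes above background was -0.65 on the log2 scale. The median log2 difference (replicate 2 minus replicate 1) of the 25 genes was -0.08, against 0.07 for all genes above background. It was -0.20 for KLF, -0.62 for IRF and 0.00 for ETS genes. The IRF value rests on 4 genes and on the brighter Irf5 probe set, and was -0.05 with Irf5 read on its probe set above background on both arrays. No gene of the set was over 2-fold higher on replicate 2, where 3.43% of all genes were, and Irf5 alone was over 2-fold lower, where 1.96% were. The count lower was 10 with scaling to the hybridisation controls and 2 with median scaling. Among all 7354 genes above background it was 1540 and 234. The count was 0 with the 99th percentile as background (110 of 5957 genes) or with 32 added to the signal (116 of 7354 genes). Only Irf5 lay outside the central 95% of differences of all genes above background, which ran from -0.94 to 1.08. Relative to the median of all genes, 23 of 25 genes had the same direction under the authors' scaling and quantile normalization. Elk4 and Klf7 were the exceptions. Scaling to the medians or to the hybridisation controls multiplies each array by 1 number, which cancels here, so neither could change a relative direction.

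**Figure D2:**
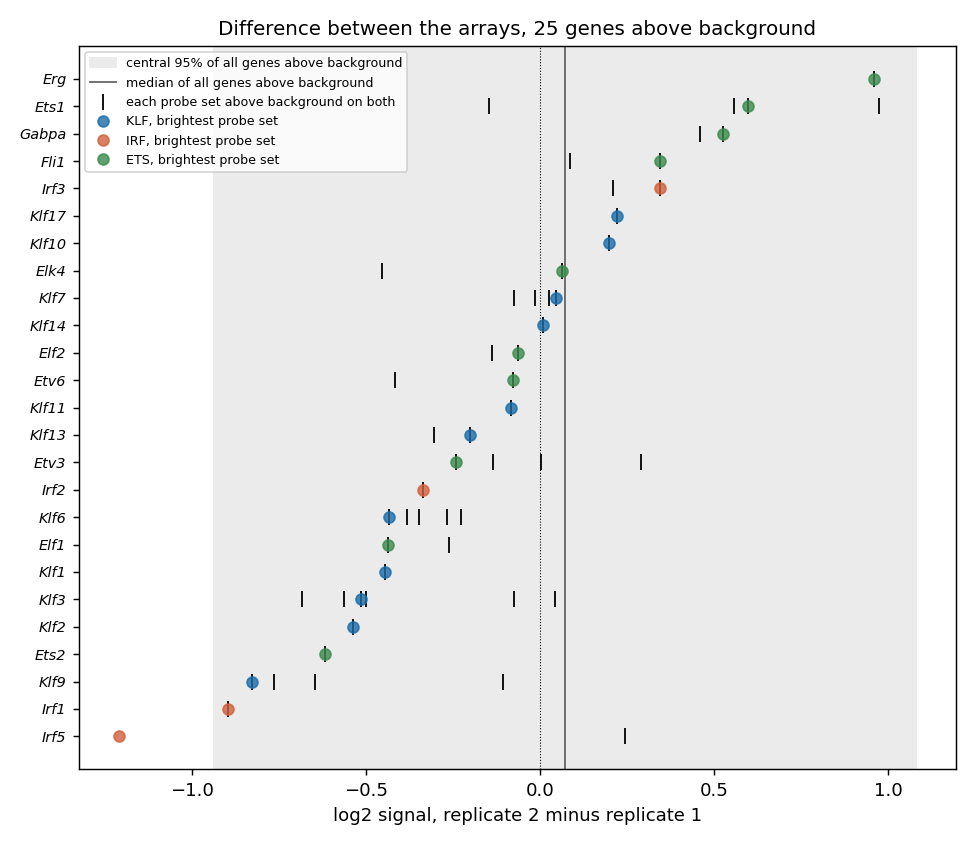
Log2 signal of replicate 2 minus replicate 1 (horizontal) for the 25 genes above background, with a circle for the brightest probe set, ticks for each probe set above background on both arrays, and the grey band and line for the central 95% and median of all genes above background. Irf5 lies left of the band at -1.21 while its tick lies at 0.24, and Erg lies at the right end at 0.96.

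Some genes had several probe sets above background on both arrays. These pointed the same way for 9 of the 14 genes with at least 2 such probe sets: Elf1, Elf2, Etv6, Klf6, Klf9 and Klf13 were lower on replicate 2 on every such probe set, and Fli1, Gabpa and Irf3 higher. Apart from Klf6 and Klf9, these 9 genes had only 2 such probe sets each. The same share over all genes was not computed, so 9 of 14 has no value to be set against. The 5 with mixed directions were Elk4, Ets1, Etv3, Klf3 and Klf7.

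Markers of other cells and of division differed between the arrays as well. Of the neutrophil markers 9 were higher on replicate 2, S100a8 and Ltf by 1.77-fold each, while Cxcr2 (7212 and 3224) was 2.24-fold and Csf3r (7951 and 4670) 1.70-fold lower. The 8 monocyte markers had a summed signal of 7134 on replicate 1 and 3234 on replicate 2, most of it from Csf1r (5020 and 1928) and Klra2 (1275 and 510). The other 3 above background did not share that gap: F13a1 had 264 and 231, Fn1 148 and 136, and Ccr2 was higher on replicate 2 (157 and 220). The 9 macrophage markers summed to 9960 and 6510, most of it from the iron exporter gene Slc40a1 (7747 and 5233). The other 4 above background were Adgre1 (627 and 217), Hmox1 (744 and 441), C1qb (256 and 163) and Vcam1 (260 and 255), while C1qa (104 and 7.45) and C1qc (4.81 and 8.75) were not. The 11 proliferation markers summed to 1208 and 8095, and the 5 above background on both arrays (Mki67, Top2a, Ccnb2, Birc5 and Rrm2) were each over 2-fold higher on replicate 2, Mki67 with 212 and 2149. The B cell markers summed to 529 and 963 and the T cell markers to 737 and 852. Igll1 and Cd3d, the markers above background on both arrays, were not higher on replicate 2. The B cell markers Pax5 (88.8 and 174), Ms4a1 (72.6 and 158) and Cd22 (71.3 and 137) were above background on replicate 2 alone. They were thus at least 1.62-fold, 1.47-fold and 1.27-fold higher there. Of the T cell markers Cd8a (99.9 and 135) was so, at least 1.25-fold higher. The rest of the B and T cell markers were below background on both arrays. The part of any of these in the differences of Irf1, Irf5, Klf2, Klf9, Ets1 or Erg was not tested.

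Genes that work with these families were mostly above background. In the SP branch, the nearest relatives of the KLF proteins, 5 of 7 were, with Sp1 at 2508 and 2361, Sp3 at 6542 and 7747 and Sp4 at 525 and 384. Of the partners and co-regulators 13 of 15 were, among them Spi1 (1171 and 1056) and the GABP partner subunits Gabpb1 (124 and 135) and Gabpb2 (794 and 713). The CtBP genes, whose products the Klf3 protein recruits, were both above background, Ctbp1 with 1940 and 1949. Of the kinases, adaptors and receptors upstream 11 of 16 were above background, including the MAP kinase kinase genes Map2k1 (2543 and 1886), Map2k2 (419 and 501) and Map2k5 (152 and 198). Of these 11, 9 had less signal on replicate 2, where 43.7% of all genes above background had, and the median log2 difference was -0.19 against 0.07. With scaling to the hybridisation controls all 11 had less, as had 91.7% of all genes. Tbk1, the kinase of IRF3, had 2298 and 2140. Its relative Ikbke had 39.0 and 222, below background on replicate 1 and thus at least 2.07-fold higher on replicate 2.

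Among 11 measured textbook targets 9 were above background. Of these 9, 5 had less signal on replicate 2 and 4 had more, where 43.7% of all genes above background had less. Their median log2 difference was -0.05, against 0.07 for all genes above background. Egr1 (5890 and 3139) and Fos (15164 and 11501), targets of SRF with its ETS partners, had less signal on replicate 2, and Mcl1 was level (24436 and 23532). Gbp2, an interferon-induced gene that IRF1 activates, had 319 and 88.9, below background on replicate 2, and was at least 2.43-fold lower there. No gene of these 4 lists that was above background on both arrays differed over 2-fold, where 3.43% and 1.96% of all genes were higher and lower.

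**Figure D3:**
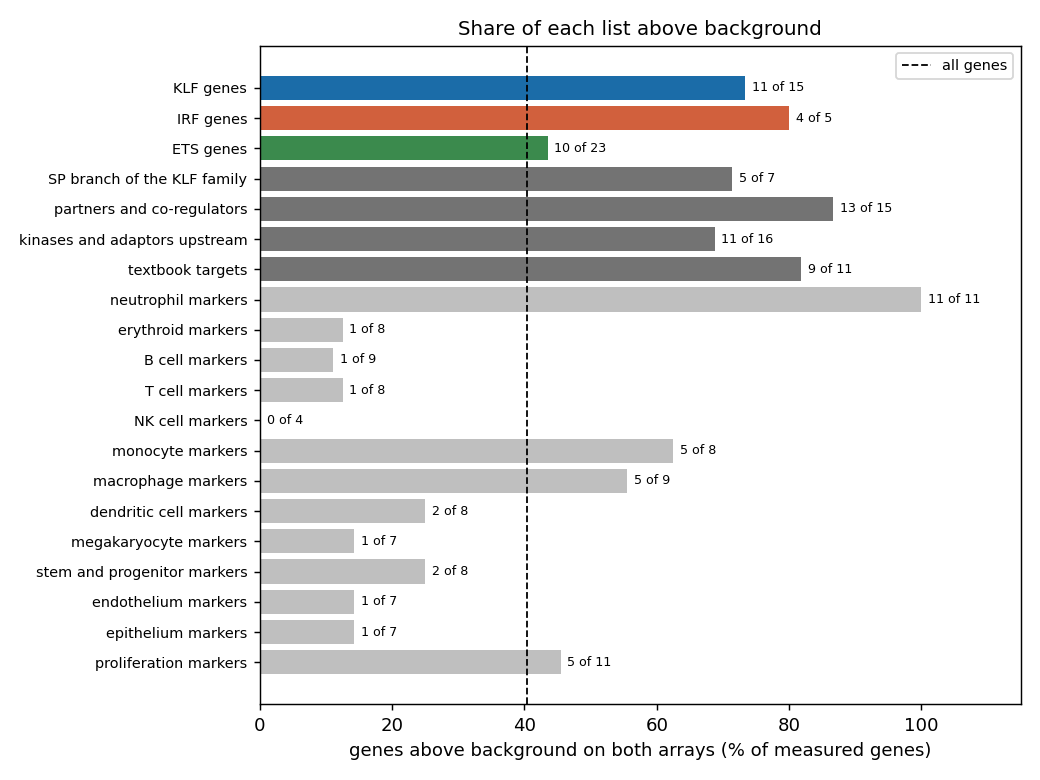
Share of measured genes above background on both arrays (horizontal, %) for the 3 families, the 4 lists of genes that work with them and the marker lists, with counts beside the bars and the share of all genes as a dashed line. The KLF (11 of 15) and IRF (4 of 5) bars pass the line at 40.4% widely, and the ETS bar (10 of 23) ends near it.

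Promoter windows from RefSeq (GRCm38.p6), 250 bases before to 50 after a start site, were at hand for 36 of the 43 genes. The ratio of observed to expected CpG, taken at the start site where it was highest, had a median of 0.84 for the 21 genes above background and 0.46 for the 15 that were not. A ratio over 0.6 was found in 19 of 21 and in 6 of 15. Over all measured genes with a window these shares were 79.0% of 6033 and 46.2% of 8420, so the same direction held for genes in general. The 2 genes above background with a low ratio were Klf1 (0.15) and Klf17 (0.38), both of which had signals close to background. Of the genes below background, Klf15 (1.18) and Klf4 (0.97) had the highest ratios.

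**Figure D4:**
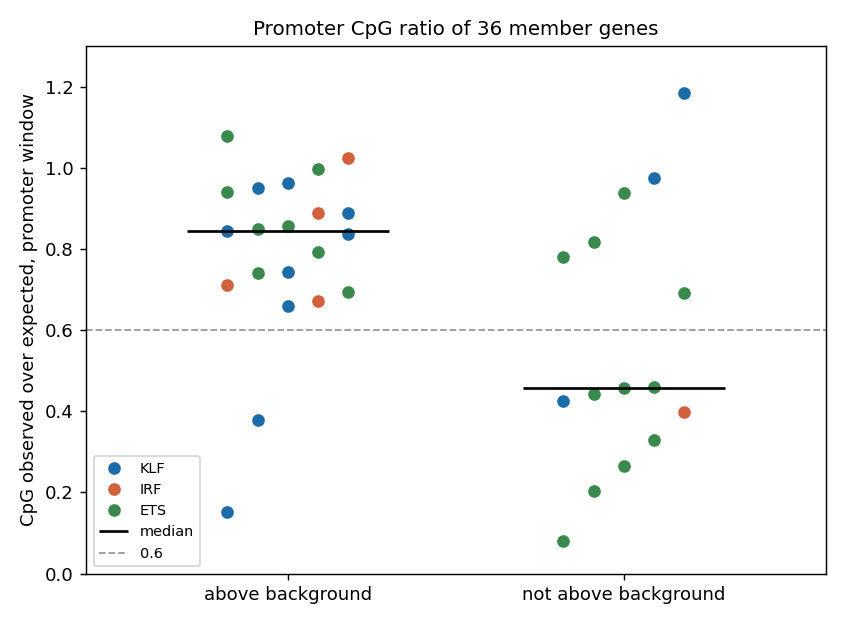
Observed over expected CpG (vertical) in the promoter window of 36 genes of the set, by whether the gene was above background, with the median as a bar and colours for KLF (blue), IRF (orange) and ETS (green). Only Klf1 and Klf17 lie under the dashed line at 0.6 among the 21 genes above background.

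The palindrome TTCNNNGAA was in the windows of 5 of 36 genes of the set (Irf1, Irf2, Etv6, Elf2 and Klf9). Of all 14453 measured genes with a window, 8.57% held it. All 5 are among the 21 genes of the set above background with a window. Of all measured genes above background with a window, 7.97% held it, and no test was made. The IRF repeat was found in Irf2, Etv6 and Elk4, 3 of 36 genes, and in 3.63% of all measured genes with a window. The ETS site CCGGAAG was found in 2 of 36 genes, and in 15.0% of all measured genes with a window. The GC box GGGCGGG, a site of SP and KLF proteins, was in 16 of 36 genes, near the 42.9% of all measured genes. The CACCC-type site CCACACCC was in 2 of 36 genes, Klf12 and Klf17, near the 4.56% of all measured genes. The CArG box, the site of SRF, was in 1, Irf3, against 1.58% of all measured genes. Searches used both strands. In the windows printed above no match overlapped that of another motif, and the GC boxes of Irf1 and Irf2 are not in capitals.

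In all, 3 pairs of ETS genes are direct neighbours among protein-coding genes in the RefSeq annotation, Erg with Ets2, Fli1 with Ets1 and Ehf with Elf5. Each pair shared its call, above background for Erg, Ets2, Fli1 and Ets1 and below it for Ehf and Elf5. The share of neighbouring pairs with the same call over all genes was not computed, so these 3 pairs have no value to be set against. The direction between the arrays was shared by Fli1 and Ets1, both higher on replicate 2, but not by Erg (higher) and Ets2 (lower). With scaling to the hybridisation controls, Fli1 and Ets1 were both lower.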

How the data were processed

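Per the labels, live Gr-1-high, CD48-negative bone marrow cells were sorted and their labelled RNA was hybridised to 1 array per experiment. The authors deposited a linear signal intensity per probe set, made with MAS5 per the submitters' processing notes. No version or setting is named in the labels. Checked on the values, both arrays had the same mean of 250 once 2% of probe sets were trimmed at each end, so differences are relative to that scaling.

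Of 45101 probe sets, 34958 had 1 gene in GEO's platform annotation, 932 several and 9211 none here. All 43 symbols matched by gene identifier to RefSeq's table (GRCm38.p6). Levels are log2 of the signal floored at 1. A difference was called when over 2-fold, a signal below background being set to the background of its array, which gives a lower bound. With 1 group of 2 arrays no test was made. Alternatives covered the background, the probe sets used and the scaling. The named genes are all members, the first 3 measured genes of each list of related genes and any over 2-fold, and markers above background on both arrays; other genes (markers not above background on both, Ctbp1 and Tbk1) were chosen after their values were seen. Members and lists were chosen with earlier results of these data known. Calls were checked on made-up arrays of known answer. These had less noise than the real arrays, and changes well over 2-fold were planted in bright genes alone. That check does not cover calls near 2-fold or signals near background, such as those of Irf5. Python 3.11.15, pandas 2.3.3 and numpy 2.4.6 were used.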

Additional observations from a re-analysis of the deposited data

How the results depend on the processing

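The count of genes of the set above background, 25 of 43, was 21 with the 99th percentile (without Irf5, Klf1, Klf14 and Klf17), 28 with olfactory receptors alone, 23 by the median signal of each gene's probe sets and 24 without the _x_at and _s_at probe sets. Over all genes the share above background was 32.7%, 42.7%, 33.3% and 38.9% under these alternatives in turn, against 40.4%. Without the _x_at and _s_at probe sets 41 genes of the set were left. The count was 27 on each array taken alone, where 46.3% of all genes passed on replicate 1 and 44.2% on replicate 2. The median log2 difference of -0.08 was -0.21 with median scaling and -0.80 with hybridisation controls. Over all genes above background these medians were -0.06 and -0.65.

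The count over 2-fold lower, 1 (Irf5), was 0 with the 99th percentile, with 32 added to the signal and with the mean log2 signal of all probe sets, 2 (Irf1 and Irf5) with median scaling and 10 with hybridisation controls (Elf1, Ets2, Irf1, Irf2, Irf5, Klf1, Klf2, Klf3, Klf6 and Klf9). Among all genes these counts were 110 of 5957, 116 of 7354, 169 of 6066, 234 of 7354 and 1540 of 7354, in turn. With the mean log2 signal of all probe sets 1 gene of the set, Erg, was over 2-fold higher, where 236 of 6066 genes were. Reading each gene on its brightest probe set above background on both arrays, an alternative chosen after seeing the data, also gave 0 lower, and Irf5 reversed to 0.24 and the IRF median was -0.05. Without the bound, also chosen after seeing the data, the counts were 0 higher and 1 lower. Of 249 values of single genes under the alternatives, 38 moved by more than the spread between the arrays, and 1 more, that of Irf5, reversed. The 99th percentile, olfactory receptors alone and the reading without the bound cannot change these values. The share that did not move was thus partly fixed in advance. With hybridisation controls every gene but Irf5 moved. No paired analysis was possible because there is 1 group.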
